A study of Mus musculus with 24 samples.

Results

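The Egr and Nr4a factors are immediate early genes, whose transcription is switched on in neurons by activity within minutes and does not need new protein. Egr1, Egr2, Egr3 and Egr4 are zinc finger proteins that bind GC-rich elements, and Nab1 and Nab2 are corepressors that bind Egr proteins and limit their activity. Nr4a1, Nr4a2 and Nr4a3 (Nur77, Nurr1 and Nor1) are orphan nuclear receptors that activate transcription without a known ligand. The Egr and Nr4a genes are induced in the hippocampus by seizures. Many immediate early genes are controlled through serum response elements (CArG boxes, bound by SRF with ternary complex factors) and cAMP response elements (bound by CREB).

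These 9 genes were chosen by name, with earlier results of these data known, and each was found in the count table among 53379 genes. All 9 passed the filter on low counts, which left 37598 genes tested, with between 23 and 8144 reads per member and library. The mice were adult male C57/BL6N, acquired at 8 weeks of age and acclimatized for 4 weeks. KA mice received 70 nl of 20 mM kainic acid, a glutamate receptor agonist, in the cortex beside the right hippocampus, and only mice with convulsive seizures were kept, so that KA stands for the agent together with the seizures. SH mice received saline by the same surgery, and both treatments shared the anesthetics and buprenorphine. Right hippocampi were taken 24 hours after status epilepticus, 8 mice per treatment combined into 3 pools of 4 or 2 mice. In the paper's pooling scheme sample 1 held 4 mice, and samples 2 and 3 held 2 each. Each pool was divided by nuclear sorting into NeuN+ (neurons) and NeuN- (glia), which gave 12 mRNAseq libraries in 4 groups of 3. The RNA is nuclear, and the glia fraction is all nuclei without NeuN, not 1 cell type.

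The 12 libraries held 7769400 to 40364768 counts (median 21380824.5). In each group replicate 3 had the most counts and the fewest genes detected. These were 39704 genes in SH neurons, 42160 in KA neurons, 36165 in SH glia and 37060 in KA glia. SH glia replicate 1 and KA glia replicate 2 were made from 0.05 ng RNA with 15 PCR cycles and the other libraries from 1 ng with 10 cycles. The 12 neuron markers summed to between 5440.6 and 8792.9 CPM (counts scaled to library size) in neurons and between 391.7 and 1655.0 CPM in glia. Oligodendrocyte markers summed to between 7488 and 29772 CPM in glia and between 144.7 and 1279.6 CPM in neurons. In glia, as a percentage of the mean in neurons of the same treatment, the neuron markers stood at 7.69%, 21.3% and 24.6% in SH replicates 1, 2 and 3 and at 6.47%, 13.3% and 25.3% in KA.

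By the GRCm38 annotation, Egr2 (ENSMUSG00000037868) spans chr10:67535475-67542188, Egr3 (ENSMUSG00000033730) chr14:70077203-70082614 and Egr4 (ENSMUSG00000071341) chr6:85511121-85513589. Nab1 (ENSMUSG00000002881) spans chr1:52457294-52500679 and Nab2 (ENSMUSG00000025402) chr10:127660918-127668568. Nr4a1 (ENSMUSG00000023034) spans chr15:101254269-101274795, Nr4a2 (ENSMUSG00000026826) chr2:57106830-57124003 and Nr4a3 (ENSMUSG00000028341) chr4:48045153-48086447. Nab2 was the only member with exons overlapped by another gene. The antisense transcript Gm16229 covers 35.7% of its exon bases, Nemp1 covers 5.13% and Stat6 1.36%, all on the opposite strand. The counting was unstranded and left out reads on more than 1 gene, so the values of Nab2 are uncertain.

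RefSeq promoter windows (GRCm38.p6) were matched for 7 members by symbol, and the 250 bases before each start were searched on both strands. Egr1 and Egr3 were not among them and were not searched. They are shown for the 2 members past the threshold in neurons without a block, Egr2 and Nr4a1, and for the next member of each family by p value, Egr4 and Nr4a2. Capitals mark matches to the CArG box and to TGACG, the core of the cAMP response element, which reads CGTCA on the other strand. The windows are chr10:67537619-67537868 on the plus strand for Egr2, chr6:85513590-85513839 on the minus strand for Egr4, chr15:101266596-101266845 on the plus strand for Nr4a1 and chr2:57124004-57124253 on the minus strand for Nr4a2.
Egr2: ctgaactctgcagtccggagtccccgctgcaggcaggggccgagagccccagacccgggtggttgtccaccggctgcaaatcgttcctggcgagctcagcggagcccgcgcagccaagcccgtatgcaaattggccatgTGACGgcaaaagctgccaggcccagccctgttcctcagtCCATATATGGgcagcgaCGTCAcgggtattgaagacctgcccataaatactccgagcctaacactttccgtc
Egr4: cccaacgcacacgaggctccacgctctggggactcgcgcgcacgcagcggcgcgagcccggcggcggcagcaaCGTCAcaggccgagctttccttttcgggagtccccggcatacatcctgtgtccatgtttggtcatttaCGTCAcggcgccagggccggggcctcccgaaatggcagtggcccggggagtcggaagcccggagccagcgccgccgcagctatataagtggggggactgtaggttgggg
Nr4a1: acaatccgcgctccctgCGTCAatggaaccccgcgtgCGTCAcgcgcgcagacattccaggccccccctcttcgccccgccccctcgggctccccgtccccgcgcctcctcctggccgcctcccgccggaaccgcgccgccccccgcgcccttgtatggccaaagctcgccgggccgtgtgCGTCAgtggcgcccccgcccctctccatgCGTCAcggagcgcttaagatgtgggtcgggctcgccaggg
Nr4a2: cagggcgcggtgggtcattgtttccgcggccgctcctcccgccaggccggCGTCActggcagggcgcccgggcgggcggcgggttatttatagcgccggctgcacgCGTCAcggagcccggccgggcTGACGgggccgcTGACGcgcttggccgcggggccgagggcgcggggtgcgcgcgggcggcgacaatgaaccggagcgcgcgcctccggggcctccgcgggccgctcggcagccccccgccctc

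RefSeq gives 5 windows for Egr2, and the third by position is shown, picked after the search because it holds matches. It has the CArG box CCATATATGG 72 bases before the start and a TGACG match on either side of it, and 2 further windows that overlap it hold the same matches. The window at the outermost start of Egr2 holds neither motif, and another holds the CArG box CCTTTTTTGG and no TGACG. A CArG box was found in 1.47% of the 32851 promoter windows, and among the members searched only in windows of Egr2. Nothing can be said of Egr1 and Egr3, which were not searched. TGACG was found in 17.8% of all windows, with 4 matches each in Nr4a1, Nr4a2 and Nr4a3, 2 in Egr4 and 1 in Nab1. The full element TGACGTCA (1.55% of all windows), which contains that core, and the Nr4a element AAAGGTCA (1.34%) were in no member window. The Egr element GCGTGGGCG, in 0.536% of all windows, was matched 2 times in the window of Nab1 and in no other member window. These are matches of letters and not bound sites.

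Levels between genes were compared per length, as RPKM, reads scaled to exon length and library size. In SH neurons the mean RPKM was 15.6 for Egr4, 15.1 for Nr4a1, 15.0 for Nab2, 13.1 for Egr1, 10.7 for Nr4a2, 8.61 for Egr3, 5.06 for Nab1, 3.40 for Nr4a3 and 1.22 for Egr2. Neighbours in this order overlapped between libraries, apart from Egr1 and Nr4a2 and from Nr4a3 and Egr2. In SH glia the order was Nr4a1 (9.89 RPKM), Egr1 (9.22), Nab1 (6.02), Egr4 (2.87), Nab2 (2.66), Nr4a2 (2.41), Egr3 (2.14), Egr2 (1.27) and Nr4a3 (1.00), and only Nab1 and Egr4 did not overlap. In KA neurons Egr4 (60.8 RPKM), Egr1 (50.2) and Nr4a1 (47.7) formed the top with overlapping libraries, all of them above Egr3 (21.8) and Nr4a2 (21.4). Nab2 (15.0 RPKM), Nab1 (6.87), Nr4a3 (5.80) and Egr2 (5.68) followed. Nr4a1 and Egr3 did not overlap there, nor did Nab2 and Nab1, and the other neighbours did. In KA glia Egr1 (39.2 RPKM) stood above all other members in every library, followed by Nr4a1 (10.5), Egr4 (9.08), Nab1 (6.71), Nab2 (5.25), Egr2 (5.13), Egr3 (4.41), Nr4a2 (3.58) and Nr4a3 (0.866). There Nr4a2 and Nr4a3 did not overlap, while the neighbours from Nr4a1 to Nr4a2 did.

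Expression in KA was then compared with SH in neurons. The Egr and Nr4a genes had higher mean levels in KA, and in 7 of 9 members the 3 KA libraries lay above the 3 SH libraries, which was so for 5.27% of all genes tested. Egr2 and Nr4a1 rose past the threshold (FDR 0.25, edgeR's quasi-likelihood test with Benjamini-Hochberg adjustment over all genes). These are 2 of 9 members, beside 0.279% of all genes. The study, at the same threshold but with fewer genes tested, called partly other members. Its list for neurons holds Egr2 and Egr4 and lacks Nr4a1. The corepressors Nab1 and Nab2 overlapped between KA and SH. The median logFC was 1.34 over the members and 0.0005 over all genes. KA and SH libraries of the same replicate number deviated together, and a replicate block gave 6 members that rose, beside 1.94% of all genes. These were Egr1, Egr2, Egr3, Egr4, Nr4a1 and Nr4a2. In bulk libraries, fewer cells of a type and less RNA per cell cannot be told apart.

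**Figure D1:**
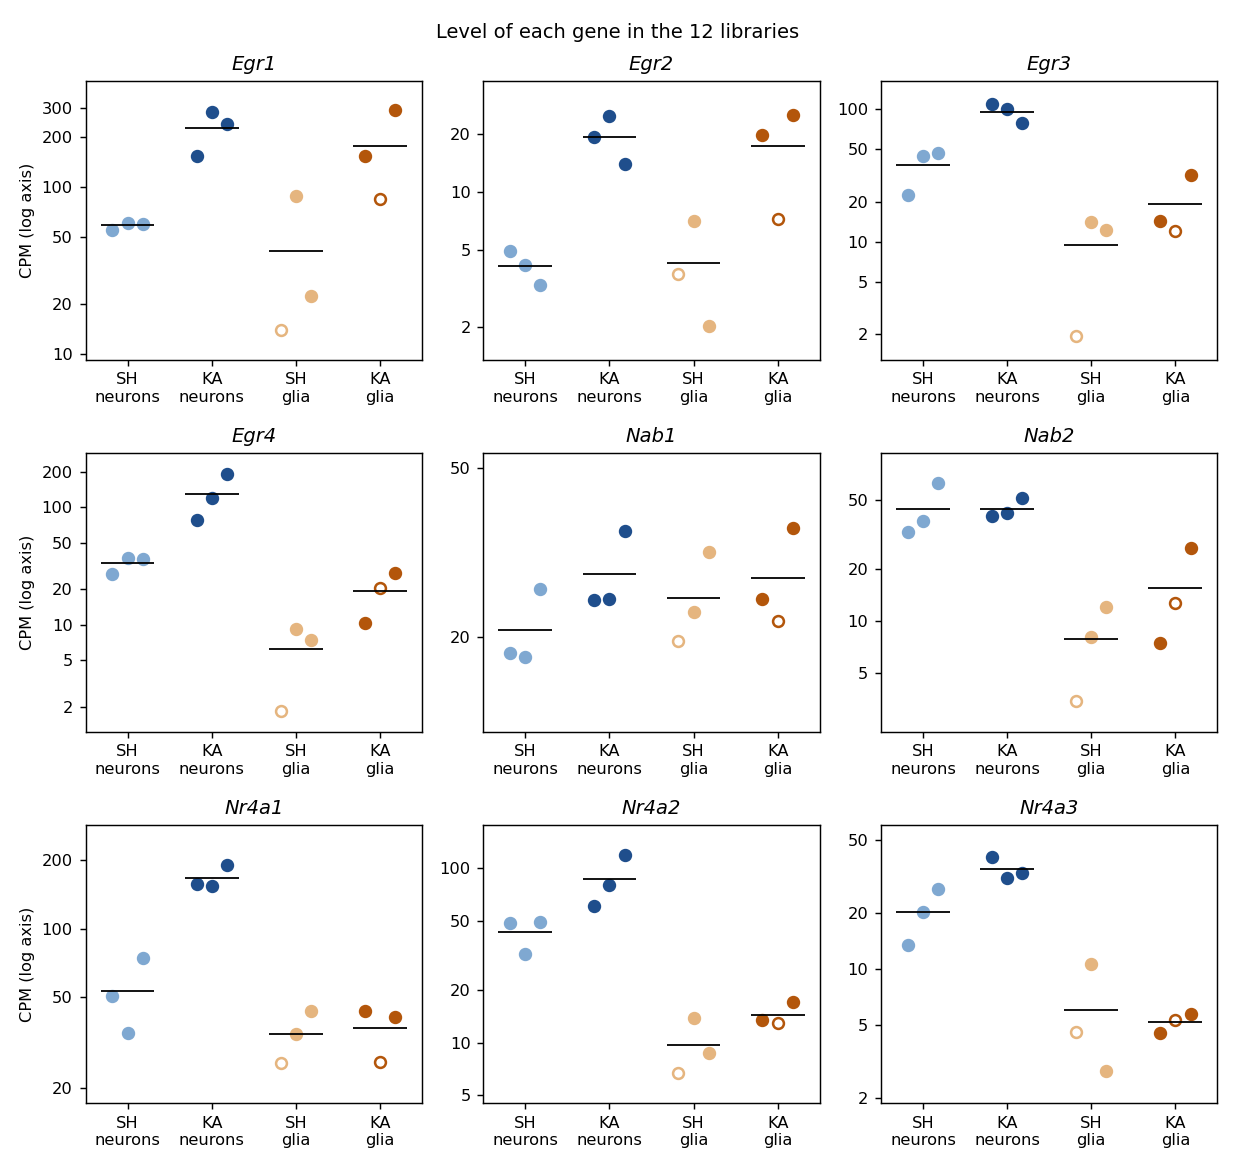
Level of each gene in CPM (log axis, its range set per panel) in the 12 libraries, with 1 point per library, replicates 1 to 3 from left to right and a line at the group mean. Open points are the libraries made from 0.05 ng RNA. KA neurons lie above SH neurons for the 4 Egr and 3 Nr4a genes, and Nr4a1 in glia lies between 25.7 and 43.7 CPM in both treatments.

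Egr2, known for its part in myelination and in the response to synaptic activity, had 4.96, 4.17 and 3.31 CPM in SH neurons and 19.2, 24.7 and 14.0 CPM in KA neurons. The lowest KA library was over the highest SH library, and within a replicate number KA was 3.87, 5.92 and 4.24 times SH. The logFC was 2.22 (SE 0.51, FDR = 0.187 by edgeR's quasi-likelihood test), and 2.20 with the replicate block (FDR = 0.0203 by the same test). Nr4a1 had 50.6, 34.7 and 74.0 CPM in SH neurons and 158, 154 and 190 CPM in KA neurons. The KA libraries were close together, and each was more than 2 times the highest SH library. The logFC was 1.66 (SE 0.36, FDR = 0.145 by edgeR's quasi-likelihood test), and 1.72 with the block (FDR = 0.00149 by the same test). Over 17 alternatives Egr2 had an FDR between 0.00494 and 0.826 and Nr4a1 between 0.00149 and 0.854, and each passed in 10. Egr2 passed in none of the fits without 1 neuron library, with a logFC between 2.00 and 2.41. Of these fits Nr4a1 passed in 2, those lacking SH replicate 3 or KA replicate 1, with a logFC between 1.43 and 1.97. It did not pass when both low-input libraries were left out (logFC 1.65, FDR = 0.333 by edgeR).

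Egr1, the most studied Egr factor and a common marker of neuronal activity (ENSMUSG00000038418, chr18:34859823-34864984), had 55.2, 61.3 and 60.3 CPM in SH neurons and 155, 283 and 239 CPM in KA neurons. The SH libraries were alike and every KA library was higher. Its logFC of 1.93 (SE 0.59) did not pass by edgeR without the block (FDR = 0.600) and passed with it (FDR = 0.0433). Egr4 had 27.2, 37.1 and 36.3 CPM in SH neurons and 78.5, 120 and 193 CPM in KA neurons. Its KA libraries spread widely but all exceeded SH, with a logFC of 1.96 (SE 0.51, FDR = 0.314 by edgeR). The block gave 1.88 and FDR = 0.00110 for Egr4, the lowest of the members. Egr3, a factor of muscle spindles and of synaptic plasticity, had 22.6, 44.5 and 46.7 CPM in SH neurons and 109, 99.8 and 79.3 CPM in KA neurons. Each KA library exceeded all SH libraries, and the ratio within a replicate number ran from 1.70 to 4.83. The logFC was 1.34 (SE 0.54, FDR = 1.00 by edgeR), with FDR = 0.109 under the block. Over the 17 alternatives the FDR ranged from 0.00669 to 1 for Egr1, from 0.0682 to 1 for Egr3 and from 0.00110 to 1 for Egr4.

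Nr4a2, needed for dopaminergic neurons and also expressed in hippocampal and cortical neurons, had 48.5, 32.2 and 49.5 CPM in SH neurons and 61.2, 79.9 and 119 CPM in KA neurons. The groups did not overlap, with a logFC of 1.00 (SE 0.35, FDR = 0.885 by edgeR without the block, 0.132 with it, and between 0.132 and 1 over the alternatives). Nr4a3 had 13.5, 20.4 and 27.1 CPM in SH neurons and 40.2, 31.0 and 33.0 CPM in KA neurons. Its groups did not overlap either, but the logFC of 0.77 (SE 0.42) passed in neither fit (FDR = 1.00 without and 0.540 with the block, by edgeR). Nab1 had 18.3, 17.96 and 26.0 CPM in SH neurons and 24.4, 24.6 and 35.5 CPM in KA neurons, and the ratio within a replicate number was 1.33, 1.37 and 1.37. Its logFC of 0.44 (SE 0.33) did not pass in either fit. Nab2 had 32.7, 37.8 and 61.9 CPM in SH neurons and 40.1, 41.8 and 50.8 CPM in KA neurons, a logFC of 0.00 (SE 0.46).

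With each cell type fitted on its own, as the methods of the study describe, 6 members rose in neurons, beside 1.28% of all genes, and they were those called with the block. In that fit Nr4a2 had the largest FDR of the 6 (0.201 by edgeR). DESeq2 called Egr1, Egr2, Egr4 and Nr4a1 higher in neurons, beside 0.811% of all genes. Leaving out SH replicate 1, SH replicate 2, KA replicate 2 or KA replicate 3 of the neurons left no member called. Nr4a1 alone was called when SH replicate 3 was left out, and Egr2 alone when both low-input libraries were.

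The same comparison was made in glia. The 4 Egr genes had mean levels in KA of at least 2.05 times SH in the fit, while the Nr4a genes had logFC of 0.09, 0.57 and -0.21. Egr2 rose past the threshold, 1 of 9 members beside 0.442% of all genes. The study's list for glia holds Egr1 as well as Egr2. In 2 members, Egr2 and Egr4, the KA libraries lay above all SH libraries, which held for 3.61% of all genes. The median logFC was 0.97 over the members and 0.14 over all genes. With the replicate block 5 members rose, Egr1, Egr2, Egr3, Egr4 and Nab2, beside 3.47% of all genes.

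**Figure D2:**
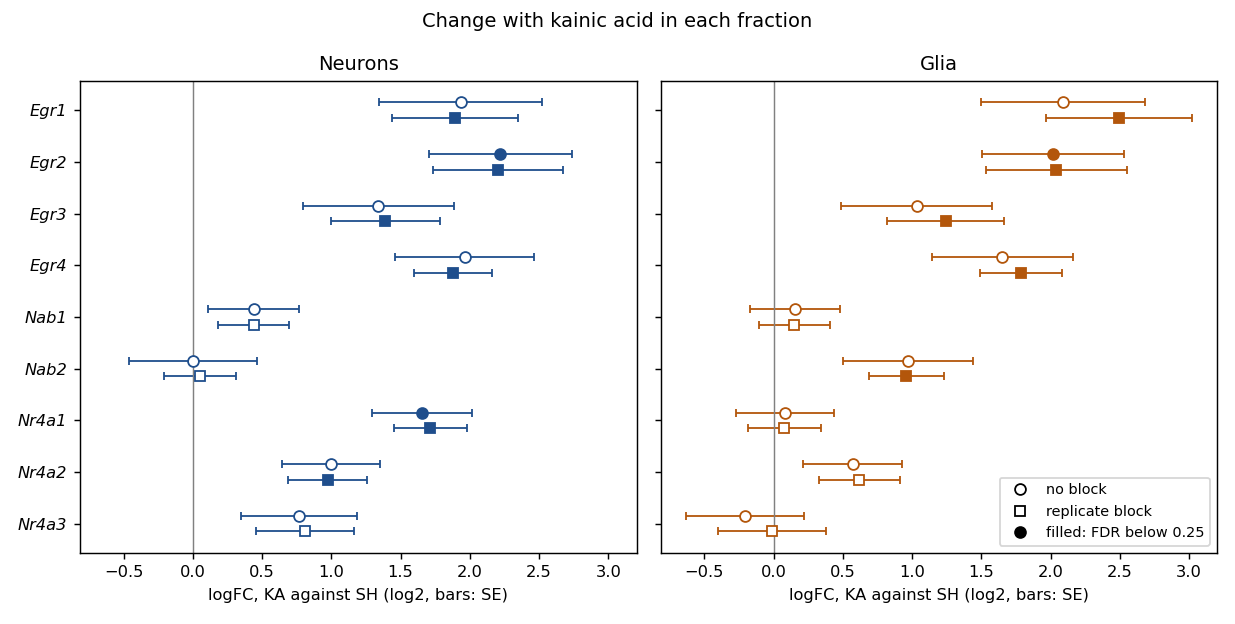
The logFC of KA against SH with its SE for each gene in neurons (left) and glia (right), without (circles) and with (squares) the replicate block. Filled symbols passed FDR 0.25, which were 2 members in neurons and 1 in glia without the block and 6 and 5 with it.

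Egr2 had 3.78, 7.11 and 2.03 CPM in SH glia and 19.9, 7.30 and 25.1 CPM in KA glia. KA replicate 2, a low-input library, was barely over SH replicate 2, with a ratio of 1.03, while the other pairs differed by 5.27 and 12.4 times. The logFC was 2.02 (SE 0.51, FDR = 0.196 by edgeR's quasi-likelihood test), and 2.04 with the block (FDR = 0.0372 by the same test). Over 17 alternatives its FDR ranged from 0.00831 to 0.845. It did not pass when SH replicate 1 (logFC 2.04), SH replicate 3 (1.67), KA replicate 1 (2.03) or KA replicate 3 (1.65) was left out, when both low-input libraries were (2.30, FDR = 0.459 by edgeR), or with glia fitted on their own (2.14, FDR = 0.463 by edgeR). Leaving out SH replicate 2 gave 3 called members, Egr1, Egr2 and Egr4.

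Egr1 had 13.8, 88.1 and 22.1 CPM in SH glia and 154, 85.0 and 289 CPM in KA glia. SH replicate 2 and KA replicate 2 were alike, so the groups overlapped, and the other 2 pairs differed by 11.2 and 13.0 times. The logFC of 2.09 (SE 0.59, FDR = 0.297 by edgeR) was 2.49 with the block (FDR = 0.0122). It was between 1.52 and 3.28 with 1 glia library left out, the highest when SH replicate 2 was (FDR = 0.0362 by edgeR). Egr4 had 1.85, 9.25 and 7.38 CPM in SH glia and 10.3, 20.5 and 27.7 CPM in KA glia. All 3 pairs were higher in KA, by 5.59, 2.22 and 3.75 times, with a logFC of 1.65 (SE 0.51, FDR = 0.405 by edgeR, and 0.00177 with the block). Egr3 had 1.93, 14.1 and 12.2 CPM in SH glia and 14.3, 12.2 and 31.8 CPM in KA glia. The lowest value was that of SH replicate 1, a low-input library, and the logFC of 1.03 (SE 0.54) had FDR = 1.00 by edgeR and 0.159 with the block. Over the alternatives the FDR reached from 0.0122 to 1.00 for Egr1, from 0.159 to 1 for Egr3 and from 0.00177 to 1 for Egr4, and none of these passed when both low-input libraries were left out.

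Nr4a1 had 25.7, 34.6 and 43.7 CPM in SH glia and 43.7, 26.0 and 40.9 CPM in KA glia. The groups covered the same range, with a logFC of 0.09 (SE 0.35) and a sign that turned with KA replicate 1, KA replicate 3 or both low-input libraries left out and with no filter on low counts. Nr4a2 had 6.75, 13.8 and 8.79 CPM in SH glia and 13.6, 13.0 and 17.1 CPM in KA glia, a logFC of 0.57 (SE 0.35) that passed in neither fit. Nr4a3 had 4.58, 10.6 and 2.81 CPM in SH glia and 4.52, 5.32 and 5.72 CPM in KA glia, a logFC of -0.21 (SE 0.43). Nab1 had 19.5, 22.8 and 31.7 CPM in SH glia and 24.6, 21.8 and 36.1 CPM in KA glia, a logFC of 0.15 (SE 0.33). Nab2 had 3.46, 8.03 and 11.98 CPM in SH glia and 7.47, 12.6 and 26.2 CPM in KA glia. Its groups overlapped, but within a replicate number KA was 2.16, 1.57 and 2.19 times SH. The logFC of Nab2 was 0.97 (SE 0.47, FDR = 1.00 by edgeR) and 0.96 with the block (FDR = 0.0734, the lowest over the alternatives, which reached 1), and 0.35 without KA glia replicate 3.

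**Figure D3:**
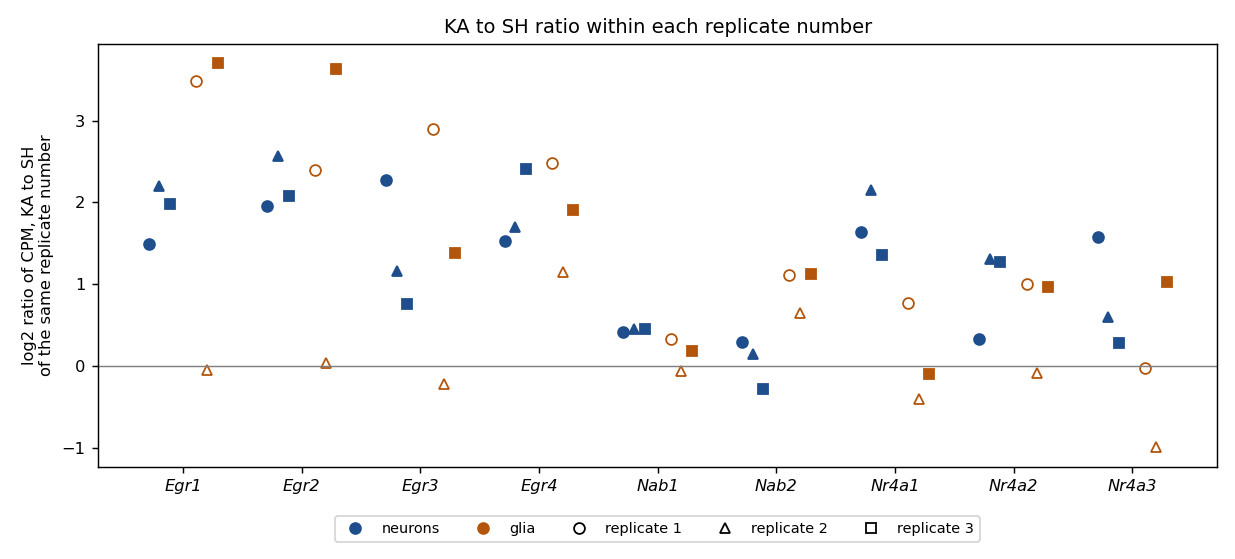
The log2 ratio of CPM in KA to SH of the same replicate number for each gene, in neurons (blue) and glia (brown), with a symbol for each replicate and open symbols where 1 library of the pair was made from 0.05 ng RNA. In neurons all 3 ratios are above 0 for every gene but Nab2, while in glia the pair of replicate 2 lies near 0 for Egr1 (-0.05), Egr2 (0.04) and Egr3 (-0.22).

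Markers of glial cell types had lower summed levels in KA glia. The sums in SH and KA glia ranged from 14283 to 29772 and from 7488 to 14034 CPM for the 8 oligodendrocyte markers, from 1757.3 to 2867.7 and from 784.2 to 1563.7 CPM for the 5 oligodendrocyte precursor (OPC) markers and from 1699.0 to 2544.4 and from 829.1 to 1657.5 CPM for the 8 astrocyte markers. Of single markers, Siglech and P2ry12 of microglia and Cspg4 of OPC fell past the threshold in glia, and no other listed marker passed in either fraction, by edgeR without the block. With the block 6 of 8 astrocyte, 5 of 8 oligodendrocyte, 4 of 5 OPC and 3 of 8 microglia markers fell in glia, beside 4.17% of all genes, as did Snap25 of 12 neuron markers, while Tek of 7 endothelial and pericyte markers rose. In neurons Siglech and Cnp fell with the block, beside 1.11% of all genes. The 8 microglia markers summed to between 1001.8 and 2331.7 CPM in SH glia and between 689.5 and 1385.5 CPM in KA glia. Neuron markers summed to between 516.7 and 1655.0 CPM in SH glia and between 391.7 and 1534.8 CPM in KA glia. The 7 endothelial and pericyte markers reached at most 72.2 CPM in any glia library, and the 6 leukocyte markers tested, of 7 listed, at most 117.2 CPM. The part of cell composition in the changes of Egr, Nab and Nr4a genes in glia was not tested.

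The change with KA was compared between neurons and glia by a test of the difference itself. Nr4a1 had the largest difference of the members, with a logFC that was 1.57 higher in neurons (SE 0.50, FDR = 1.00 by edgeR). At FDR 0.25 no gene of the table passed this test without a block (0%), by edgeR's legacy quasi-likelihood test or edgeR 4, while DESeq2 called 39 genes and no member. At an unadjusted p under 0.05 there were 502 genes by the legacy test, with Nr4a1 as the only member, 673 by edgeR 4 and 618 by DESeq2, with 1 member each. With a block by pool, Nr4a1 passed (1.63, SE 0.32, FDR = 0.0918 by edgeR, and up to 1.00 over 22 alternatives), 1 of 9 members beside 0.314% of all genes. The difference was between 1.35 and 1.89 in the 12 fits without 1 library. With the block Nab2 was the only other member at an unadjusted p under 0.05, with a change 0.90 lower in neurons (SE 0.40, FDR = 1 by edgeR). The 4 Egr genes had differences between -0.15 and 0.31, each smaller than its SE of 0.70 to 0.80, which leaves room for a difference of either sign. For Nr4a3 the difference was 0.97 (SE 0.60) and for Nr4a2 0.43 (SE 0.50).

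Neurons were further compared with glia within each treatment. In SH, 5 members were higher in neurons, beside 12.3% of all genes, by edgeR without a block. These were Nab2 (logFC 2.48, SE 0.49), Egr4 (2.43, SE 0.52), Nr4a2 (2.15, SE 0.37), Egr3 (2.00, SE 0.56) and Nr4a3 (1.76, SE 0.43). All 5 passed with any 1 library left out, but without the low-input SH glia replicate 1 the logFC was 1.20 for Egr3, 1.68 for Egr4 and 1.80 for Nab2, and without SH glia replicate 2 it was 2.49 for Nr4a3. Egr1 (0.51, SE 0.57), Nr4a1 (0.61, SE 0.35), Egr2 (-0.05, SE 0.50) and Nab1 (-0.25, SE 0.33) did not pass. The logFC of Egr1 was -0.21 without SH glia replicate 1, and 1.72 without SH glia replicate 2, where it passed (FDR = 0.0512 by edgeR). With a block by pool Egr1 (0.98, FDR = 0.152 by edgeR) and Nr4a1 (0.58, FDR = 0.0945 by edgeR) passed as well, beside 21.9% of all genes, and over 22 alternatives their FDR reached 1.00. In KA the same 5 members and Nr4a1 were higher in neurons, 6 of 9 beside 11.2% of all genes, with a median logFC of -0.24 over all genes. The logFC of Nr4a1 was 2.18 (SE 0.37) in KA, Nr4a3 had 2.74 (SE 0.45), Egr4 2.74 (SE 0.52), Nr4a2 2.57 (SE 0.37), Egr3 2.30 (SE 0.56) and Nab2 1.51 (SE 0.47). The logFC of Nab2 in KA was 2.14 without KA glia replicate 3, and its call was lost when KA glia replicate 1, KA glia replicate 2 or both low-input libraries (1.18, FDR = 0.375 by edgeR) were left out.

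Mean CPM in glia was then set beside the level of neuron markers in glia, since nuclei of neurons may enter the NeuN- gate. The 12 summed neuron markers in glia stood at 17.9% of neurons in SH and 15.0% in KA. In KA, Egr4 stood at 14.9%, Nr4a3 at 14.9%, Nr4a2 at 16.8%, Egr3 at 20.2% and Nr4a1 at 22.0% of their levels in neurons, Nab2 at 34.9%, Egr1 at 78.1%, Egr2 at 90.3% and Nab1 at 97.7%. In SH, Nab2 stood at 17.7%, Egr4 at 18.4%, Nr4a2 at 22.5%, Egr3 at 24.8%, Nr4a3 at 29.5%, Nr4a1 at 65.3%, Egr1 at 70.2%, Egr2 at 104% and Nab1 at 119%. In single KA glia libraries the neuron markers stood at 6.47% to 25.3%. The means of Egr3, Egr4, Nr4a1, Nr4a2 and Nr4a3 in KA were inside that range, and Egr1, Egr2, Nab1 and Nab2 above it. In single SH glia libraries the neuron markers stood at 7.69% to 24.6%. The means of Nab2, Egr4 and Nr4a2 in SH were inside that range, and Egr3, Nr4a3, Nr4a1, Egr1, Egr2 and Nab1 above it. Egr3, at 24.8% beside 24.6%, was only just above it. Means of members are thereby set beside single libraries. Single neuron markers also had higher and lower shares than the sum. In SH, Gad1 had a mean of 161 CPM in neurons and 57.9 CPM in glia, and Slc17a7 1929 and 244 CPM. The range of the sum is therefore not the range of single neuron markers. SH glia replicate 1, a low-input library with neuron markers at 7.69%, had the lowest CPM of the 12 libraries for Egr1, Egr3, Egr4, Nab2, Nr4a1 and Nr4a2. KA glia replicate 1, with the lowest neuron markers (6.47%), had 154 CPM of Egr1, 19.9 CPM of Egr2 and 43.7 CPM of Nr4a1. It also had 14.3 CPM of Egr3, 24.6 CPM of Nab1 and 13.6 CPM of Nr4a2. For Egr4 (10.3 CPM), Nab2 (7.47 CPM) and Nr4a3 (4.52 CPM) it was the lowest of the KA glia libraries. The part of neuronal RNA in the glial values was not tested.

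**Figure D4:**
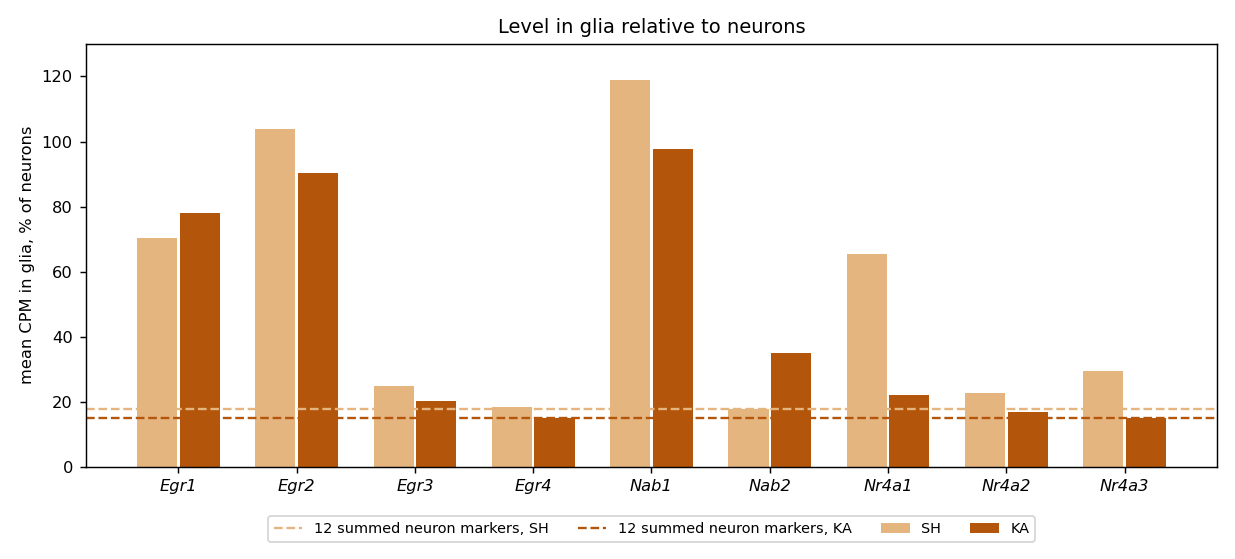
Mean CPM in glia as a percentage of neurons for each gene in SH (light) and KA (dark), with dashed lines at the same percentage for the 12 summed neuron markers (17.9% in SH, 15.0% in KA). Egr1, Egr2 and Nab1 are far above the lines in both treatments, Nr4a1 at 65.3% in SH and 22.0% in KA.

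Genes around these factors were described from lists of upstream regulators, targets and partners. Of the 6 SRF and ternary complex factor genes, 8 CREB factors and coactivators, 4 MEF2 factors, 9 genes of the ERK cascade and 3 RXR partners of Nr4a, none passed the threshold in neurons or glia without the block. Their median logFC in neurons and glia was -0.23 and -0.09 for SRF, 0.11 and 0.02 for CREB, -0.17 and 0.01 for MEF2, -0.39 and -0.13 for ERK and -0.06 and -0.25 for RXR. The smallest p values in neurons were those of Mkl2 (logFC -0.59) and Mkl1 (-0.49), coactivators of SRF, of Crem (0.44) and Crtc3 (0.39) in the CREB list, of Mef2b (-0.79) and Mef2d (0.25), of Mapk3 (-1.05) and Rps6ka5 (-0.65) in the ERK list, and of Rxra (-0.24) and Rxrg (-0.06). In glia they were those of Mkl2 (-0.53) and Mkl1 (-0.37), Atf1 (0.46) and Crem (0.38), Mef2a (-0.39) and Mef2b (0.51), Mapk3 (-0.67) and Rps6ka3 (0.86), and Rxrb (-0.47) and Rxra (-0.25). With the block Mapk3, which encodes ERK1, fell in neurons (FDR = 0.0423 by edgeR) and glia (0.176), and Rps6ka3, a kinase downstream of ERK, rose in glia (0.209).

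Among known Egr targets, 1 of 9 tested rose in neurons and 1 in glia without the block, beside 0.279% and 0.442% of all genes. Fasl was listed but had too few counts. With the block 3 rose in neurons (Arc, Cd44 and Tgfb1), 2 rose in glia (Arc and Cd44) and 2 fell in glia (Syn2 and Gabra4). Of all genes, 1.94% rose in neurons with the block, and in glia 3.47% rose and 4.17% fell. Arc, an effector of synaptic plasticity, went from 138 ± 47.2 CPM (SD, n = 3) in SH neurons to 775 ± 257 CPM in KA neurons, a logFC of 2.49 (SE 0.48, FDR = 0.0742 by edgeR). In glia it had 72.0 ± 18.1 and 122 ± 65.4 CPM, and the logFC of 0.76 (SE 0.45) did not pass without the block and passed with it (FDR = 0.238 by edgeR). Cd44, a receptor for hyaluronan, went from 12.8 ± 9.78 CPM in SH glia to 129 ± 28.4 CPM in KA glia, a logFC of 3.35 (SE 0.69, FDR = 0.0660 by edgeR). The median logFC of the list was 0.21 in neurons and -0.33 in glia. Of 7 Nr4a targets, none passed in neurons without the block, where Th (1.91, SE 0.77) and Ret (0.78, SE 0.44) had the smallest p values. Th, the rate-limiting enzyme of catecholamine synthesis, rose in neurons with the block (FDR = 0.0867 by edgeR). Its levels were low, with 1.09 ± 0.488 CPM in SH neurons and 4.10 ± 1.05 CPM in KA neurons. In glia Ret, a receptor for neurotrophic factors, was the 1 that rose (1.67, SE 0.45), at an FDR of 0.249, next to the threshold. With the block Ret rose in glia (FDR = 0.0135 by edgeR) and Aldh1a1 fell (0.221).

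Of 18 other immediate early factors, 7 rose in neurons and 5 in glia, beside 0.279% and 0.442% of all genes. With the block 14 and 10 rose, beside 1.94% and 3.47% of all genes. The list was chosen with earlier results of these data known. The study's own lists of raised genes hold Fos, Fosb, Fosl2 and Npas4 in both fractions. An excess over all genes is therefore partly built in. The median logFC of the 18 was 1.80 in neurons and 1.39 in glia, beside 1.34 and 0.97 for the Egr, Nab and Nr4a genes. In neurons the 4 with the smallest p values were Npas4 (logFC 3.33), Fosb (3.14), Fosl2 (2.09) and Fos (3.19). In glia they were Fosb (2.50), Fos (2.74), Npas4 (2.38) and Fosl2 (1.53). Fos had 15.9 ± 6.32 CPM in SH neurons and 145 ± 51.7 CPM in KA neurons, and 23.0 ± 23.8 and 154 ± 64.4 CPM in SH and KA glia (SD, n = 3). Npas4, a factor specific to neurons, rose from 19.4 ± 2.59 to 196 ± 56.9 CPM in neurons and from 3.09 ± 2.47 to 16.3 ± 8.35 CPM in glia.

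**Figure D5:**
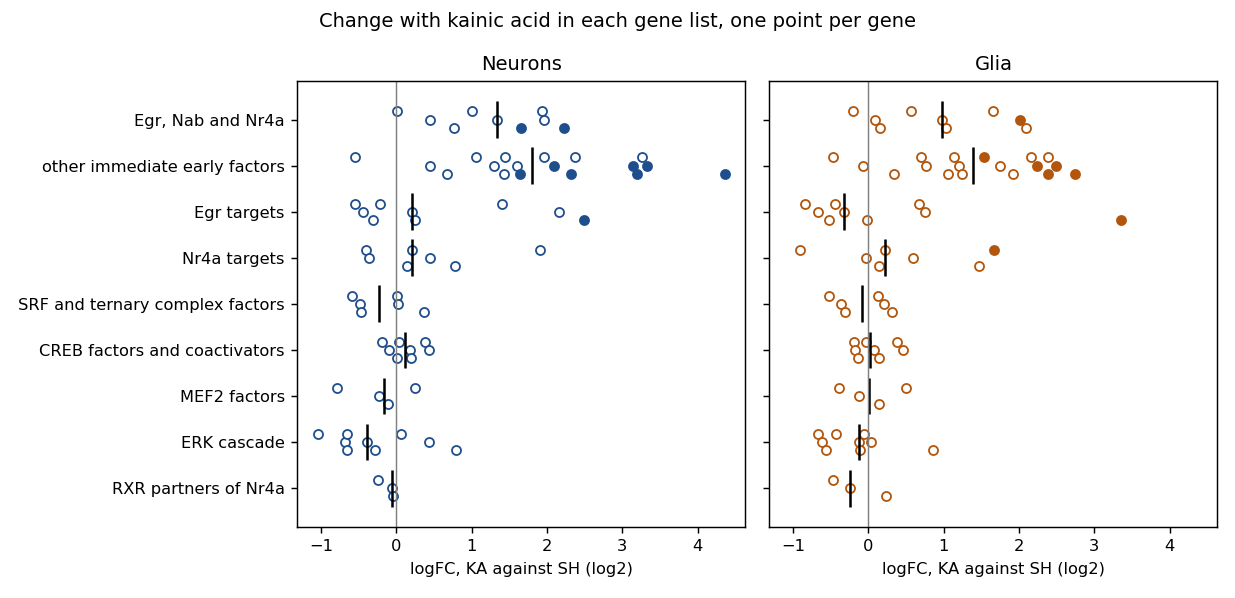
The logFC of KA against SH for each gene tested of 9 lists, in neurons (left) and glia (right), with a line at the median of the list and filled points for genes past FDR 0.25 without the block. Filled points are in the lists of the Egr, Nab and Nr4a genes, other immediate early factors, Egr targets and Nr4a targets, and none among the upstream regulators.

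Across the 12 libraries, the 3 genes whose log2(CPM + 1) was most like that of Egr2 among 25226 genes with a mean of at least 1 CPM were Fos (r = 0.943), Egr1 (0.899) and Gm45774 (0.899). For Nr4a1 they were Sox11 (r = 0.946), Arc (0.940) and Gm27004 (0.940). The points share groups, pools and libraries, so these r values describe likeness in these 12 libraries only.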

How the data were processed

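The 12 mRNAseq libraries were used, and the RRBS libraries were not used here. The authors trimmed reads with Trim Galore 0.4.3, aligned them to mm10 with Rsubread and deposited raw counts of uniquely mapped reads per gene from featureCounts (default parameters, GENCODE M16), without normalization. Which library ran on which sequencer is not given in the sources used here. Positions and exon lengths came from GENCODE M21.

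The members and lists were chosen with earlier results of these data known. Genes without a symbol (105) were left out. edgeR 4.0.16 (R 4.3.3, filterByExpr with a minimum count of 10 and total of 15, TMM, glmQLFit with legacy=TRUE) fitted 4 group means to all 12 libraries, and glmQLFTest p values were adjusted over 37598 genes at FDR 0.25. The study's methods treat cell types separately, but its gene lists hold the same average expression in both, so separate fits were an alternative. The SE of a logFC was its size divided by the root of the F statistic. CPM and RPKM used TMM library sizes. Without a block, p values measure the spread between libraries of a group, each from a different pool. Comparisons of neurons with glia then treat both fractions of a pool as independent. With a block, p values measure the spread left after replicate number or pool is taken out.

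The paper does not describe KA and SH pools as paired. Pairing by replicate number was checked in these same data by correlating deviations from group means across genes. Pairs of the same number gave 0.441, 0.279 and 0.624 in neurons and 0.502, 0.527 and 0.801 in glia. Pairs of different numbers gave -0.559 to 0.13 in neurons and -0.69 to 0.286 in glia. Deviations from a group mean cancel out within the group, so negative values between different numbers are partly built in. In glia, replicates 1 and 2 also correlated across numbers (0.286 and 0.214). The check is thus weaker for their pairing than for that of replicate 3. On this basis a replicate block was fitted within each cell type as an alternative. Between cell types the block was by pool. Other alternatives were RLE and upper quartile factors, other filters, all gene IDs, DESeq2 1.42.0, edgeR 4, FDR 0.05 and libraries left out. All 9 members were named, with up to 4 genes per list past the threshold or else the 2 with the smallest p. Tgfb1, Syn2, Gabra4, Aldh1a1, Fasl and single cell type markers were named after their values were seen. Scripts were tested on simulated counts. Figures were drawn with matplotlib.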

Additional observations from a re-analysis of the deposited data

Results flagged for a closer look

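Nr4a1 was flagged because its change with KA differed between the fractions by a test of the difference. The logFC in neurons minus glia was 1.63 (SE 0.32, FDR = 0.0918 by edgeR's quasi-likelihood test) with a block by pool, and 1.57 (SE 0.50) at an FDR of 1.00 without it. The KA to SH ratios of the same replicate number were 3.11, 4.44 and 2.57 in neurons and 1.70, 0.752 and 0.934 in glia.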

How the results depend on the processing

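Calls of KA against SH depended on the fit, while the logFC of called members kept their sign. The number of members called in neurons (2) was 6 with the replicate block or cell types fitted separately, 5 with at least 10 counts in every library, 4 with DESeq2, 1 with no filter or without both low-input libraries, 0 at FDR 0.05, and 0 to 2 with 1 library left out. In glia (1) it was 5 with the replicate block, 3 with upper quartile factors, at least 10 counts in every library or DESeq2, 2 with edgeR 4, 0 at FDR 0.05, with separate fits or without both low-input libraries, and 0 to 3 with 1 library left out. For the difference (0) the block by pool gave 1. All genes called in neurons (128) were 1147 with the block, 656 with separate fits, 300 with upper quartile factors, 465 with 10 counts, 456 with DESeq2, 253 with edgeR 4, 18 at FDR 0.05, 79 without the low-input libraries and 11 to 143 with 1 library left out. In glia (281) they were 2871, 146, 877, 1203, 1010, 515, 62, 41 and 83 to 554 in the same order. The cause was not tested.

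Signs turned only for values that had not passed in the main fit. Of these, Egr1 in neurons against glia in SH passed with the block by pool and without SH glia replicate 2. In neurons these were Nab2 (-0.015 with RLE factors, -0.0149 with DESeq2, -0.17 to 0.33 with 1 library left out). In glia they were Nr4a1 (-0.061 with no filter, -0.0606 without the low-input libraries, -0.0946 to 0.28), Nab1 (-0.10 to 0.37) and Nr4a3 (-0.56 to 0.50). For the difference they were Egr1 (0.0075 with upper quartile factors, -1.35 to 0.41), Egr2 (-0.0799 without the low-input libraries, -0.38 to 0.57), Egr3 (-0.0854 to 0.87) and Egr4 (-0.0817 to 0.66). Neurons against glia in SH turned for Egr2 (0.0948 with the block, -0.45 to 0.54) and Egr1 (-0.0254 without the low-input libraries, -0.21 to 1.72). In KA it turned for Nab1 (-0.13 with RLE factors or DESeq2, -0.068 with upper quartile factors, -0.0632 with no filter, -0.27 with 10 counts, -0.26 without the low-input libraries, -0.39 to 0.29), Egr2 (-0.0778 with 10 counts, -0.34 without the low-input libraries, -0.34 to 0.52) and Egr1 (-0.15 without the low-input libraries, -0.14 to 0.93). In all, 794 member values were on the same side of the threshold with the same sign, 35 passed newly, 25 no longer passed and 46 changed sign. Separate fits gave no comparison of neurons with glia.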
